A study of Homo sapiens with 12 samples.

Results

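The nuclear genes for the subunits of oxidative phosphorylation were followed across 12 Illumina BeadChip arrays of Raji cells. Members were chosen by gene symbol. A gene entered if its symbol begins with NDUFA, NDUFB, NDUFC, NDUFS, NDUFV, SDH, UQCR, COX4 to COX8 or ATP5, and if its probe had a detection p-value under 0.05 on at least 2 arrays. The NDUFAF assembly factors (8 symbols) and pseudogenes (6 symbols) were left out, and each gene was read from the kept probe with the highest mean. Of 13702 genes tested, 83 met the rule, and 77 of them are subunits: 36 of complex I, 3 of complex II, 8 of complex III, 13 of complex IV and 17 of complex V. The remaining 6 share only the prefix. SDHAF1, SDHAF2, SDHAF3 and SDHAF4 help to assemble complex II, ATP5IF1 encodes an inhibitor of ATP synthase, and NDUFB2-AS1 is an antisense RNA. Of the 77 subunits, 71 were detected on all 12 arrays.

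The study asked how MS4A1, the gene for the B cell antigen CD20, is controlled in lymphoma. Raji is an established line from a Burkitt lymphoma, a cancer of B cells. All groups, controls included, were transduced with a short hairpin RNA (shRNA), kept in puromycin for 48 h and harvested for RNA 3 days after transduction. The shMS4A1 group holds 3 arrays, 1 each for hairpins A, B and C against MS4A1 itself. The shCREM group holds 2 arrays, hairpins A and B against the cAMP-responsive transcription factor CREM. The shMBD2 group holds 4 arrays, 2 each for hairpins A and C against the methyl-CpG binding protein MBD2, and 3 arrays carry the non-targeting hairpin shNTC. The labels form 2 sets of 6 arrays. Set 1 holds shMS4A1, shCREM and shNTC 3, and set 2 holds shMBD2 with shNTC 1 and shNTC 2. Each hairpin of set 1 is therefore read from 1 array, and shMS4A1 and shCREM share 1 control array.

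Oxidative phosphorylation is carried by 5 protein complexes of the inner mitochondrial membrane. Complex I (NADH dehydrogenase) and complex II (succinate dehydrogenase) pass electrons to ubiquinone, complex III passes them to cytochrome c and complex IV (cytochrome c oxidase) to oxygen, while complex V uses the resulting proton gradient to make ATP. Most subunits are encoded in the nucleus and the rest in mitochondrial DNA, whose genes were not analysed here. Factors known to act at the promoters of the nuclear genes include NRF1, the ETS factor GABPA and YY1.

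CREM binds the cAMP response element (CRE), whose palindrome is TGACGTCA. Promoters are therefore shown for SDHA and NDUFV1, which passed a test below, and for NDUFB2, which did not. Each is the 250 bases before the annotated start in RefSeq, on the plus strand of GRCh38.p14. SDHA lies at chr5:218070-218319, NDUFV1 at chr11:67606686-67606935 and NDUFB2 at chr7:140696458-140696707. Capitals mark matches, on either strand, to the NRF1 motif with 1 free base in SDHA and to the CRE in NDUFB2.
SDHA: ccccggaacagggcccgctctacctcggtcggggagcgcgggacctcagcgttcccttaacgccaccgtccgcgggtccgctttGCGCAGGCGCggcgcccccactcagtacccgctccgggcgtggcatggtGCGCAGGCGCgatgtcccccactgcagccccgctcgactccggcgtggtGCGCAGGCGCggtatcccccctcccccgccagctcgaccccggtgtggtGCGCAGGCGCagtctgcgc
NDUFV1: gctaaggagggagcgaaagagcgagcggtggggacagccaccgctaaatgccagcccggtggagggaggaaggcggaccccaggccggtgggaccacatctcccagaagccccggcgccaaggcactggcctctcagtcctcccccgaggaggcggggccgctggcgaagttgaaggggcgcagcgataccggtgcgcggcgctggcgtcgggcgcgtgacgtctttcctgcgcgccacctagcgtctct
NDUFB2: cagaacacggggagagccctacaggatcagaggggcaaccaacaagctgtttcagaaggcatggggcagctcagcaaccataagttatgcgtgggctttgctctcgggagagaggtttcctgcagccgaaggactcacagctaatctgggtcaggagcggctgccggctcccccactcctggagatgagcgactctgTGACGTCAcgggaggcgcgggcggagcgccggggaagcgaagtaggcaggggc
The SDHA window holds 4 NRF1 matches, which begin 166, 117, 68 and 19 bases before the start and recur at even spacing. The NDUFV1 window holds none of the motifs searched, but the CRE was searched only as its whole palindrome. That window holds TGACGTCT, which differs from TGACGTCA in its last base, and such near matches were not counted. The CRE of NDUFB2 begins 53 bases before the start.

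Windows of 300 bases, from 250 before the start to the bases just after it, were held for 65 of the 77 subunits and for 10681 of the genes tested. The NRF1 motif with 1 free base was in 16 of the 65 subunit windows (24.6%) against 11% of the windows of the genes tested. Its exact palindrome, which those matches include, was in 4 (6.15% against 2.21%). The ETS motif CCGGAAG was in 19 (29.2% against 17.8%), and the YY1 motif AAGATGGC in 10 (15.4% against 5.13%). At least 1 of these NRF1, ETS or YY1 motifs was found in 37 subunit windows (56.9% against 29.8%). The E-box CACGTG was in 7 (10.8% against 9.8%). The CRE was in 4, those of ATP5MC1, ATP5ME, NDUFA10 and NDUFB2 (6.15% against 3.18%). These are matches of letters on either strand and describe the windows only.

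Median raw intensity was 99.15 to 104.87 on the arrays of set 1 and 76.92 to 86.81 on those of set 2, and 18652 to 20483 probes were detected per array. The array shNTC 1, a control of shMBD2, had both the lowest median and the fewest detected probes, and the next fewest were 19614. Between 6 and 7 of the 7 B cell markers on the arrays were detected on each array, against 0 to 3 of 8 T and NK cell, 0 to 4 of 7 myeloid, 1 to 4 of 8 epithelial and fibroblast and 0 to 1 of 4 muscle markers. COL1A1, of the epithelial and fibroblast list, was detected on all 12 arrays. Under its own hairpins MBD2 differed by -1.77 ± 0.24 (log2, standard error) and MS4A1 by -1.17 ± 0.32, and CREM, undetected on both shCREM arrays, was at least 1.53-fold below shNTC 3. CREM was detected on 4 of the 12 arrays, and shNTC 1 and shNTC 2, where it was undetected, read 4.25 and 4.47 against 5.1 on shNTC 3. Against shMS4A1 the bound for CREM under shCREM was 1.07-fold. Of these only the fall of MBD2 passed the test (limma adjusted p = 0.00105, against 0.29 for MS4A1 and 0.528 for CREM). All log2 values below are levels of a probe after normalization, or differences between such levels, and probes of different genes are not set against each other.

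As a group, the subunits stayed close to the controls under every knockdown. No subunit passed the test (limma, Benjamini-Hochberg adjusted p under 0.05 over 13702 genes) in any comparison of a knockdown with shNTC. The share of all genes that passed was 0.197% for shMS4A1, 0.0073% for shCREM and 2.86% for shMBD2. The median log2 difference over the 77 subunits was -0.03 for shMS4A1, -0.04 for shCREM and 0.02 for shMBD2, where the medians over all genes were 0.00, 0.00 and 0.04. On single arrays the subunit median ran from -0.06 (shCREM hairpin B) to 0.06 (shMBD2 hairpin C, replicate 1), and the number of subunits above the control from 28 to 48 of 77. In these bulk samples, a changed level in all cells and in only some of the cells cannot be told apart.

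**Figure D1:**
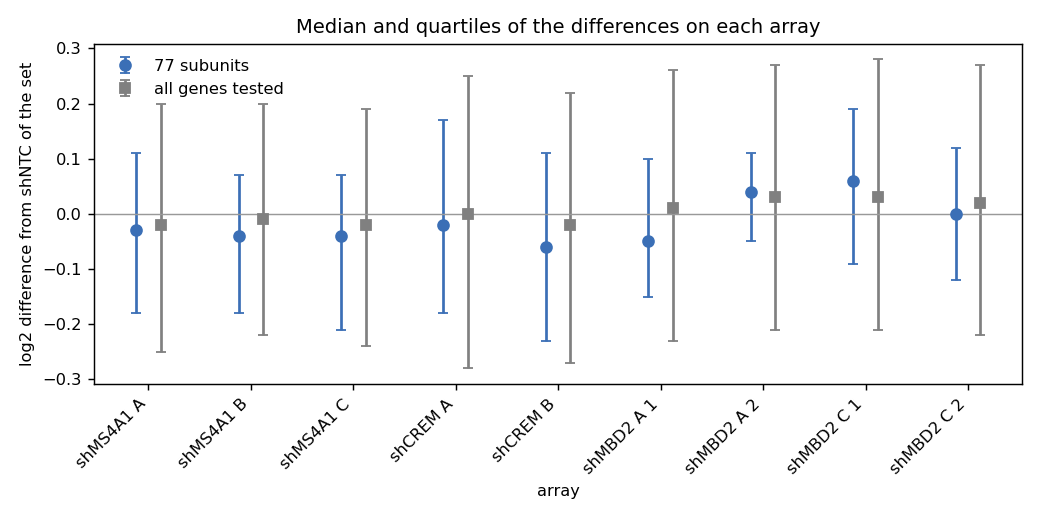
Log2 difference of each knockdown array from the shNTC mean of its set, as the median (point) and quartiles (bar) over the 77 subunits (circles) and over all genes tested (squares). The subunit medians lie between -0.06 and 0.06 on all 9 arrays.

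A smaller share of the subunits than of all genes differed by more than 0.5 on the log2 scale in each of the 4 comparisons. This was 1 of 77 subunits (1.3%) for shMS4A1 against shNTC, where 11.3% of all genes did so. It was 6 (7.79%) against 16.6% for shCREM, and 2 (2.6%) against 14.3% for shMBD2. For shCREM against shMS4A1 it was 7 (9.09%) against 17.4%. The 95% interval of the difference lay within 1 log2 unit of 0 for 73, 70, 76 and 73 of the 77 subunits in the same order, or 94.8%, 90.9%, 98.7% and 94.8%. Over all genes these shares were 73%, 63.9%, 84.9% and 80.6%. The median standard error in shMS4A1 against shNTC was 0.17 for the subunits and 0.29 for all genes. The subunits and all genes were not matched for level, so whether equally bright genes differ as little was not tested.

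**Figure D2:**
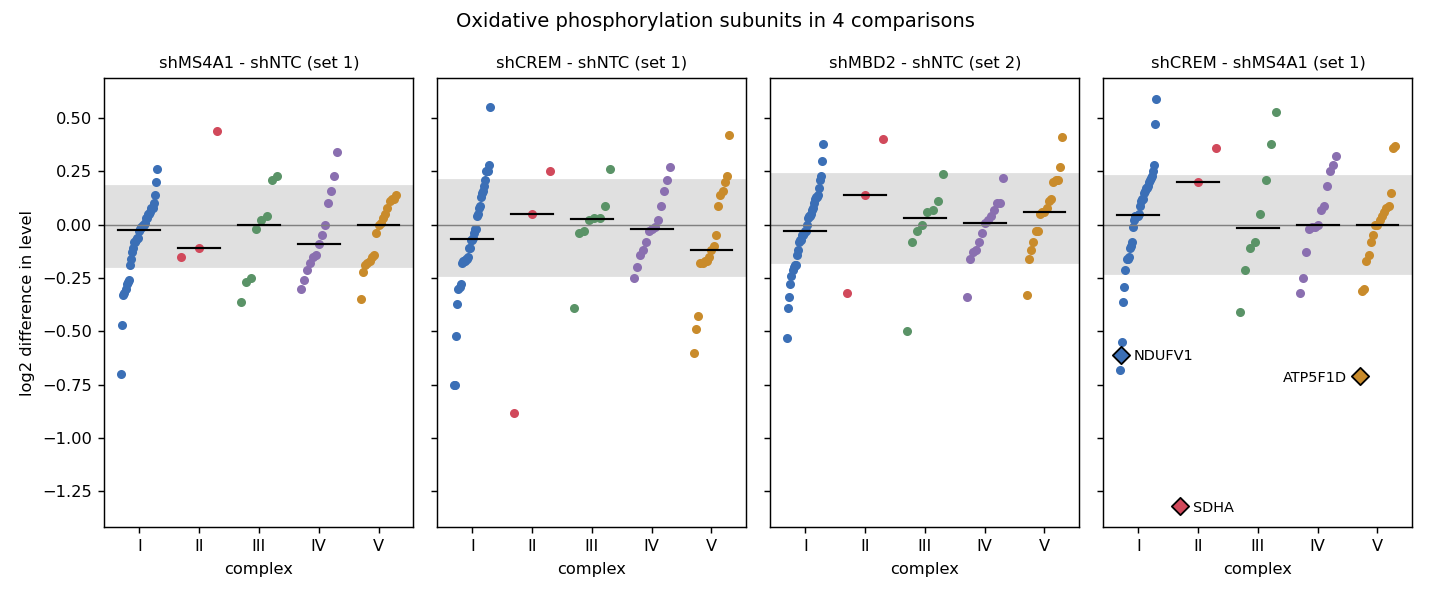
Log2 difference of each subunit (points) by complex in the 4 comparisons, with the median of each complex (line) and the middle 2 quartiles of all genes tested (grey band). Diamonds mark the 3 subunits that passed the test, SDHA, ATP5F1D and NDUFV1, all in shCREM against shMS4A1, and members undetected in a whole group are drawn at their fitted value.

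No complex stood apart as a whole. Under shMS4A1 the median log2 difference was -0.03 for complex I, -0.11 for complex II, 0.00 for complex III, -0.09 for complex IV and 0.00 for complex V. Under shCREM the medians were -0.07, 0.05, 0.03, -0.02 and -0.12 in the same order, and under shMBD2 they were -0.03, 0.14, 0.03, 0.01 and 0.06. All lay inside the middle quartiles of all genes, which ran from -0.2 to 0.18, from -0.24 to 0.21 and from -0.18 to 0.24. For complex V under shCREM, hairpin A gave -0.07 and hairpin B -0.17, with 11 of its 17 subunits below the control in the fit. Under shMS4A1, complex IV gave -0.03, -0.13 and -0.16 with hairpins A, B and C, with 9 of 13 subunits below the control.

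The contrast between the CREM and the MS4A1 hairpins, all on arrays of set 1, was the comparison in which subunits passed the test. SDHA, the flavoprotein that oxidizes succinate in complex II, was lower under shCREM than under shMS4A1 by 1.32 on the log2 scale. ATP5F1D, the delta subunit in the rotor stalk of ATP synthase, was lower by 0.71. NDUFV1, which binds NADH and the flavin in complex I, was lower by 0.61. These were 3 of 77 subunits, all lower under shCREM. Among all genes 6.12% passed, 3.25% lower and 2.87% higher, so the subunits' share was no greater than that of genes in general. The median over the subunits was 0.04, against 0.00 for all genes.

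SDHA stood at 8.94 and 8.84 under shCREM hairpins A and B, against 10.17, 10.3 and 10.14 under shMS4A1 hairpins A, B and C. The shNTC 3 array of the same set read 9.76, between the groups, and the set 2 arrays read 9.84 to 10.57. Both shCREM arrays lay below every other array of the series. The difference between shCREM and shMS4A1 was -1.32 ± 0.18 (2.49-fold, 95% interval -1.69 to -0.94, limma adjusted p = 0.000556). Against shNTC 3, shCREM was at -0.88 ± 0.24 and shMS4A1 at 0.44 ± 0.22, and neither passed the test. A second SDHA probe read 8.5 and 8.46 under shCREM against 9.72, 9.66 and 9.64 under shMS4A1, a difference of -1.2 ± 0.17 (limma adjusted p = 0.000983 over probes). On that probe shNTC 3 read 9, again between the groups.

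SDHA has the near-identical pseudogenes SDHAP1, SDHAP2, SDHAP3 and SDHAP4, which have probes of their own. In the same contrast they differed by 0.28, -0.26, 0.04 and -0.26, and none passed the limma test (adjusted p = 0.457 to 0.97). What share of a probe's signal comes from a copy was not tested. The other measured subunits of the complex, the membrane anchors SDHC and SDHD, differed by 0.36 and 0.2 and did not pass the test.

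ATP5F1D stood at 11.7 and 11.35 under shCREM, against 12.13, 12.32 and 12.28 under shMS4A1 and 12.13 on shNTC 3. The groups did not overlap, and the difference was -0.71 ± 0.13 (1.64-fold, 95% interval -1 to -0.43, limma adjusted p = 0.00523). A second probe differed by -0.51 ± 0.21 in the same direction without passing (limma adjusted p = 0.199 over probes), with hairpin B at 8.92 and hairpin A at 9.65. Hairpin A on that probe lay near the shMS4A1 arrays, which read 9.78, 9.92 and 9.7. NDUFV1 stood at 10.86 and 10.9 under shCREM, against 11.56, 11.54 and 11.36 under shMS4A1 and 11.4 on shNTC 3. Its difference was -0.61 ± 0.15 (1.52-fold, 95% interval -0.93 to -0.28, limma adjusted p = 0.0295). Leaving out any 1 of the 5 arrays compared ended the call of NDUFV1, with adjusted p-values of 0.0526 to 0.122, while its difference stayed between -0.67 and -0.57.

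**Figure D3:**
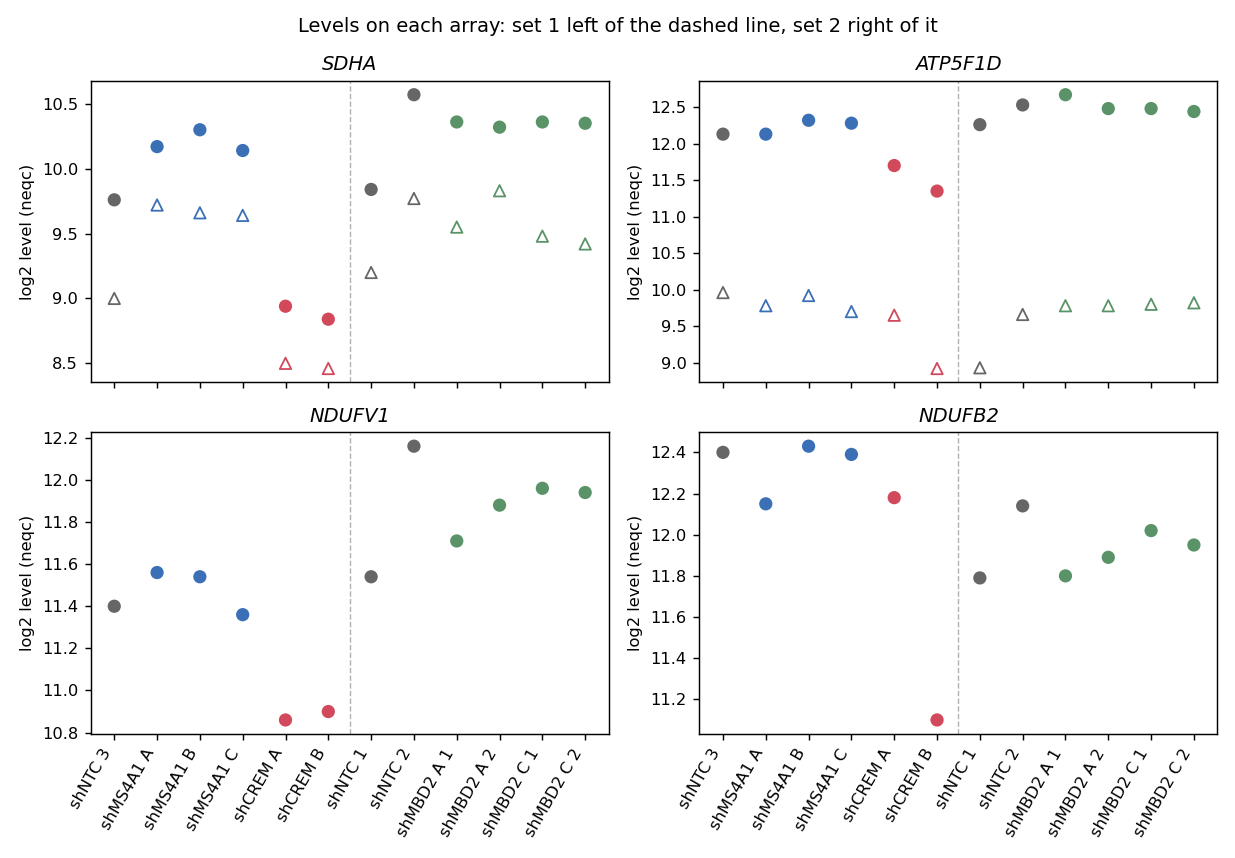
Log2 level on each of the 12 arrays for SDHA, ATP5F1D, NDUFV1 and NDUFB2, with filled circles for the probe used, open triangles for a second probe, and grey, blue, red and green for shNTC, shMS4A1, shCREM and shMBD2. Both shCREM arrays are lowest for SDHA, ATP5F1D and NDUFV1 on the probe used, and for NDUFB2 hairpin B alone reads low, at 11.1.

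The subunits with the next smallest p-values belong to complex III and did not pass. UQCRB, a small subunit near the ubiquinone site, read 10.73 and 10.6 under shCREM against 10.19, 10.02 and 10.2 under shMS4A1, a difference of 0.53 ± 0.16 (limma adjusted p = 0.0611). UQCRC1, a core protein of complex III, read 10.06 and 10.13 against 10.56, 10.48 and 10.47, a difference of -0.41 ± 0.13 (limma adjusted p = 0.0775). The groups did not overlap in UQCRB or UQCRC1, and the signs were opposite. UQCRBP1, a pseudogene of UQCRB with a probe of its own, differed by 0.31 ± 0.11, also without overlap (limma adjusted p = 0.122). What share of the UQCRB signal comes from this copy was not tested. Among all genes 35.8% had groups that did not overlap in this contrast, and 29 of the 77 subunits did.

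NDUFB2, an accessory subunit of complex I whose promoter carries the CRE shown above, read 12.18 under shCREM hairpin A and 11.1 under hairpin B. The shMS4A1 arrays read 12.15, 12.43 and 12.39, and shNTC 3 read 12.4. Only the hairpin B array stood apart, so the difference of -0.68 ± 0.22 (limma adjusted p = 0.0807) rests on 1 array. Without hairpin A it was -1.22 (adjusted p = 0.00113), and without hairpin B -0.14. The other subunits with a CRE were ATP5MC1 (0.08 ± 0.15), an isoform of the membrane ring of ATP synthase, ATP5ME, a small membrane subunit of ATP synthase, and NDUFA10, an accessory subunit of complex I. NDUFA10 read 10.38 and 9.59 under shCREM against 9.88, 10.15 and 9.79 under shMS4A1, so the groups overlapped. ATP5ME read 12.75 and 12.67 against 12.71, 12.7 and 12.73, and these groups overlapped as well.

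In the catalytic part of ATP synthase, the alpha subunit ATP5F1A read 13.15 and 13.07 under shCREM against 13.46, 13.4 and 13.39 under shMS4A1. Its difference was -0.31 ± 0.1 (limma adjusted p = 0.0805), and a second probe gave -0.42 ± 0.12 (adjusted p = 0.0495 over probes). The beta subunit ATP5F1B, which carries the catalytic sites, differed by -0.05 ± 0.1 (95% interval -0.26 to 0.15). ATP5F1E, the epsilon subunit of the rotor stalk beside ATP5F1D, read 11.8 and 11.86 against 11.42, 11.35 and 11.6, a difference of 0.37 ± 0.13 (limma adjusted p = 0.119). The delta and epsilon subunits of the same stalk thus had opposite signs.

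NDUFS1, NDUFS7 and NDUFS8 are iron-sulfur proteins of complex I. NDUFS7 differed by -0.36 ± 0.13 and NDUFS8 by -0.29 ± 0.11, without overlap between the groups and without passing the test (limma adjusted p = 0.122 and 0.15). NDUFS1, the largest of these proteins, was dim and differed by 0.11 ± 0.33 (95% interval -0.6 to 0.82). NDUFS6 was undetected on both shCREM arrays and detected on 2 of 3 shMS4A1 arrays, and was at least 1.41-fold lower (limma adjusted p = 0.214). In complex I the values ran from -0.68 (NDUFB2) to 0.59 (NDUFC2, undetected on 1 of the shMS4A1 arrays), and in complex V from -0.71 (ATP5F1D) to 0.37 (ATP5F1E). Complex IV ran from -0.25 (COX8A) to 0.32 (COX6B1) among members detected in both groups. COX8C, undetected under shCREM, was at least 1.14-fold lower, but was detected on only 1 of 3 shMS4A1 arrays (hairpin C, 5.12). COX6B2, undetected under shMS4A1, was at least 1.14-fold higher under shCREM, where only hairpin B detected it (4.83). Each of these bounds therefore rests on 1 detected reading.

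**Figure D4:**
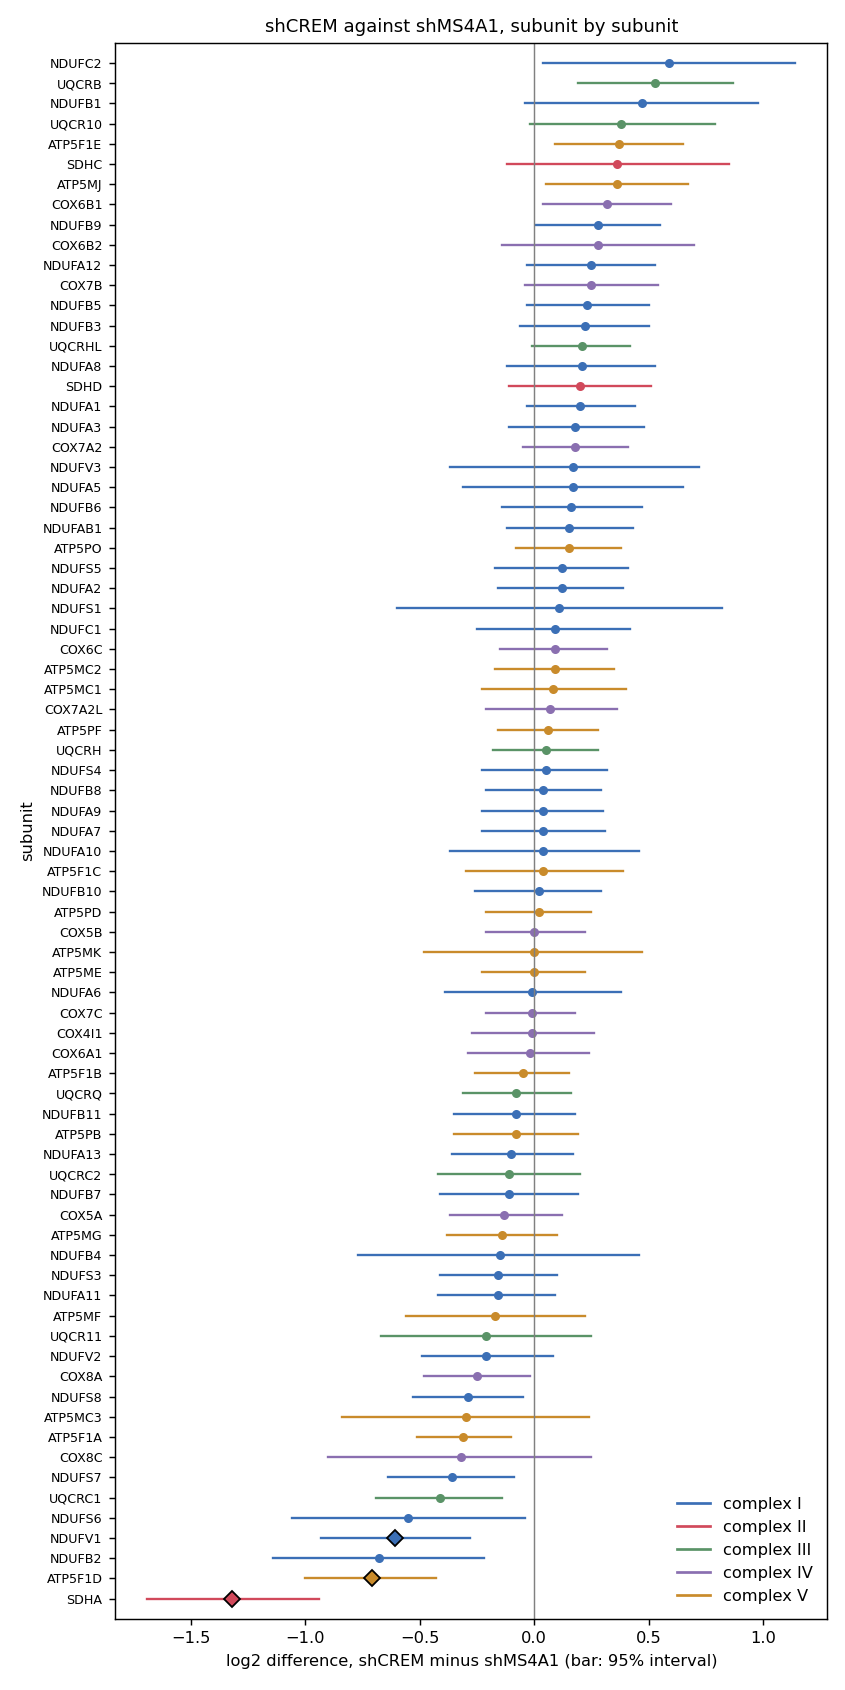
Log2 difference between shCREM and shMS4A1 for each of the 77 subunits (points) with its 95% interval (bar), coloured by complex. SDHA at -1.32 stands apart at the lower end, diamonds mark SDHA, ATP5F1D and NDUFV1, and NDUFS6, COX8C and COX6B2, undetected in a whole group, are drawn at their fitted value.

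Against the control of its own set, shCREM gave the same signs for these genes but no call. SDHA differed from shNTC 3 by -0.88 ± 0.24 (1.84-fold, 95% interval -1.38 to -0.37, limma adjusted p = 0.324) and ATP5F1D by -0.6 ± 0.18 (adjusted p = 0.353). NDUFV1 differed by -0.52 ± 0.21, NDUFB2 by -0.75 ± 0.29 and UQCRC1 by -0.39 ± 0.18, with limma adjusted p-values of 0.51 to 0.575. This comparison and the one above share the shCREM arrays, so the values are not independent of each other. The control is 1 array, and 1 gene among all 13702 passed. At an unadjusted limma p under 0.05 there were 8 subunits of 77, where 8.32% of all genes reached that level.

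The remaining subunits of those 8 lay in complexes I and V. ATP5PB, a stator subunit of ATP synthase, differed by -0.43 ± 0.17 and ATP5F1E by 0.42 ± 0.18, and neither passed (limma adjusted p = 0.515 and 0.54). NDUFS6 was at least 1.61-fold lower, being undetected on both shCREM arrays. The values of complex I ran from -0.75 (NDUFB2) to 0.55 (NDUFB1), those of complex II from -0.88 (SDHA) to 0.25 (SDHC), and those of complex III from -0.39 (UQCRC1) to 0.26 (UQCRB). In complex IV they ran from -0.25 (COX8A) to 0.27 (COX6B1). In complex V they ran from -0.6 (ATP5F1D) to 0.42 (ATP5F1E).

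Under the hairpins against MS4A1 itself the subunits lay near the control array of set 1. Of 77 subunits, 2 reached an unadjusted limma p under 0.05, where 6.17% of all genes did, and both were lower. ATP5PB read 12.51 on each of the 3 shMS4A1 arrays and 12.86 on shNTC 3, a difference of -0.35 ± 0.16 (adjusted p = 0.805). NDUFC2, an accessory subunit of complex I detected on 6 of the 12 arrays, read 4.6, 4.82 and 5.09 against 5.54, a difference of -0.7 ± 0.33 (adjusted p = 0.805). SDHA had the highest value, 0.44 ± 0.22 (95% interval -0.04 to 0.92, limma adjusted p = 0.866), and its second probe gave 0.67 ± 0.22.

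The ranges by complex were narrow under shMS4A1. Complex I ran from -0.7 (NDUFC2) to 0.26 (NDUFA6), complex II from -0.15 (SDHD) to 0.44 (SDHA), and complex III from -0.36 (UQCR10) to 0.23 (UQCR11). Complex IV ran from -0.26 (COX7B) to 0.23 (COX7C) among members detected in both groups, and complex V from -0.35 (ATP5PB) to 0.14 (ATP5F1A). COX6B2 and COX8C are isoforms best known from testis, and each was detected on only 2 of the 12 arrays. COX6B2, undetected under shMS4A1, was at least 1.16-fold lower there, against shNTC 3 at 4.71. COX8C, undetected on shNTC 3, was at least 1.11-fold higher, but only hairpin C detected it (5.12). Each of these bounds rests on 1 detected reading. The 3 probes of UQCR10, a small subunit of complex III, gave -0.36, -0.01 and 0.34. This was the widest disagreement among the 17 subunits with several probes detected throughout, where the median range between probes was 0.1.

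The MBD2 hairpins were read from 4 arrays against 2 controls, and this comparison had the narrowest intervals. No subunit passed, where 2.86% of all genes did, and 6 of 77 reached an unadjusted limma p under 0.05, where 17.5% of all genes did. The share of all genes that passed fell without shNTC 1 and rose without shNTC 2, each a fit with 1 control array. UQCRC2, the second core protein of complex III, came nearest. It read 9.79 and 9.63 with hairpin A, 9.62 and 9.49 with hairpin C, and 10.15 and 10.13 on shNTC 1 and shNTC 2. All 4 knockdown arrays were below both controls, by -0.5 ± 0.14 (1.41-fold, 95% interval -0.79 to -0.21, limma adjusted p = 0.0625). Its partner UQCRC1 differed by 0.00 ± 0.12.

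NDUFV2, which holds an iron-sulfur cluster beside NDUFV1, read 11.72, 11.99, 11.72 and 11.72 under shMBD2 against 11.22 and 11.58, a difference of 0.38 ± 0.13 (limma adjusted p = 0.119). It was 0.21 without shNTC 1 and 0.56 (adjusted p = 0.0293) without shNTC 2. NDUFA11, a membrane subunit of complex I, differed by 0.3 ± 0.11 and ATP5F1E by -0.33 ± 0.13 (adjusted p = 0.164 and 0.18). ATP5F1E, with controls at 12.31 and 11.94, was at -0.14 without shNTC 1 and -0.51 (adjusted p = 0.0363) without shNTC 2. SDHD differed by -0.32 ± 0.14 (adjusted p = 0.251). ATP5MF, a membrane subunit of ATP synthase, read 11.71, 11.65, 11.68 and 11.46 against 10.79 and 11.63. Its difference of 0.41 ± 0.17 turned on shNTC 1 alone, since it was -0.01 without that control and 0.83 without the other.

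A pair of assembly factors of complex II also came near the threshold without passing or had an unadjusted limma p under 0.05. SDHAF2, which attaches the flavin to SDHA, read 9.62, 9.79, 9.95 and 9.81 under shMBD2 against 9.3 and 9.32, and differed by 0.48 ± 0.13 (limma adjusted p = 0.058). SDHAF4, which stabilizes the flavinated SDHA, read 8.22, 8.44, 8.48 and 8.1 against 9.15 and 8.51, and differed by -0.52 ± 0.22 (adjusted p = 0.213). The value of SDHAF4 turned on shNTC 1, being -0.2 without it and -0.84 (adjusted p = 0.0471) without shNTC 2. In both genes all 4 knockdown arrays lay on 1 side of the controls. SDHA itself differed by 0.14 ± 0.17 (95% interval -0.22 to 0.5), with its 4 readings of 10.32 to 10.36 between the controls at 9.84 and 10.57.

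Across the complexes under shMBD2, complex I ran from -0.53 (NDUFS1) to 0.38 (NDUFV2), complex II from -0.32 (SDHD) to 0.4 (SDHC) and complex III from -0.5 (UQCRC2) to 0.24 (UQCR11). Complex IV ran from -0.16 (COX7B) to 0.22 (COX4I1) among members detected in both groups, and complex V from -0.33 (ATP5F1E) to 0.41 (ATP5MF). COX8C, undetected under shMBD2, was at least 1.2-fold lower. That bound rests on shNTC 1 (5.26), since COX8C was undetected on shNTC 2 (4.38). NDUFS1 had the widest interval of the subunits in this comparison, -1.2 to 0.14. Hairpins A and C against MBD2 did not differ by the test in any subunit. UQCRC2 differed from shNTC by -0.42 ± 0.16 with hairpin A and by -0.58 ± 0.16 with hairpin C, and SDHAF2 by 0.4 ± 0.15 and 0.57 ± 0.15. Over the 77 subunits the median of hairpin A minus hairpin C was -0.03, and 1 subunit exceeded 0.5, NDUFB4 at 0.57. In this contrast 0% of all genes passed the limma test, and 2.06% had an unadjusted p under 0.05.

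**Figure D5:**
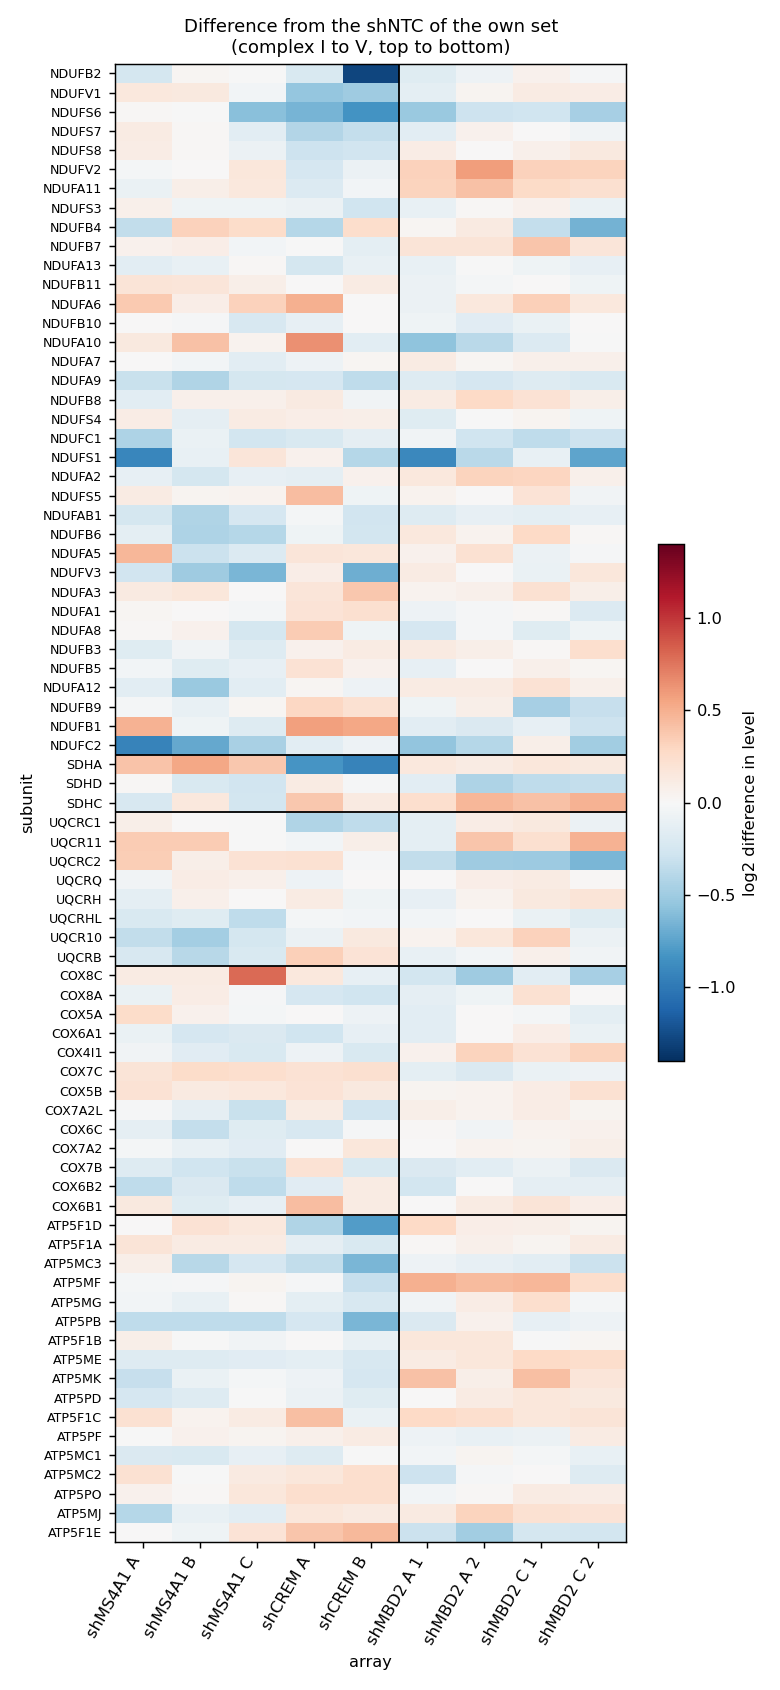
Log2 difference of each of the 77 subunits (rows, complex I at the top to complex V at the bottom, ordered within a complex by shCREM minus shMS4A1) from the shNTC mean of the set on each of the 9 knockdown arrays (columns), blue for lower and red for higher. The darkest blue cell is NDUFB2 under shCREM hairpin B, at -1.29, and SDHA is at -0.83 and -0.93 under hairpins A and B.

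The difference between knockdown effects was tested directly for MBD2 against each of the others. No subunit passed in either test, where 0.248% of all genes passed for shMBD2 minus shMS4A1 and 0.598% for shMBD2 minus shCREM. For SDHA the effect of shMBD2 exceeded that of shCREM by 1.02 ± 0.29 (95% interval 0.4 to 1.64, limma adjusted p = 0.122). UQCRC2 had the most negative difference between the effects of shMBD2 and shMS4A1, at -0.71 (limma adjusted p = 0.26).

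The paired isoforms of complexes IV and V were read separately. COX4I2, known from lung, and COX7A1, known from muscle and heart, were detected on 0 arrays, and COX6A2 and COX7B2 on 1 array each, so none of these 4 entered the tests. Their common counterparts COX4I1, COX6A1, COX7A2, COX7A2L and COX7B were detected on all 12 arrays. COX4I1 differed by -0.14 ± 0.16 under shMS4A1, -0.14 ± 0.16 under shCREM and 0.22 ± 0.12 under shMBD2. COX5A, another nuclear subunit of complex IV, differed by 0.1 ± 0.14, -0.03 ± 0.15 and -0.08 ± 0.11 in the same order. COX7A2 differed by -0.09 ± 0.14, 0.09 ± 0.14 and 0.04 ± 0.1. None of these passed the limma test, and every 95% interval lay within 0.5 log2 units of 0. The genes for the membrane ring of ATP synthase, which encode the same mature protein, also did not pass. ATP5MC1 differed by -0.18, -0.1 and -0.03, ATP5MC2 by 0.11, 0.2 and -0.12, and ATP5MC3 by -0.19, -0.49 and -0.16.

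The control arrays of the 2 sets differed from each other in more members than any knockdown did from its control. Between shNTC of set 2 and shNTC 3 of set 1, 6 subunits and 2 complex II assembly factors passed the limma test, where 6.34% of all genes did (2.53% higher in set 2 and 3.82% lower). ATP5MC2 was higher in set 2 by 0.8 ± 0.16 and ATP5MC1 at -0.76 ± 0.2 (adjusted p = 0.00941 and 0.0324), with 12.77 and 12.62 against 11.9 for ATP5MC2 and 11.09 and 11.7 against 12.16 for ATP5MC1. COX7C was higher by 0.6 and ATP5F1E by 0.71, while NDUFB10 was at -0.72 and ATP5MK at -1.05. SDHAF4 was higher by 1.68 ± 0.3 and SDHAF2 was at -0.94 ± 0.19. Set 1 has 1 control array here, and the set and whatever differed between the sets cannot be told apart. Except in the alternative with no set block, each knockdown was therefore tested against arrays of its own set. Where readings are ranked over both sets, the difference between the sets enters.

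Around the subunits, genes of the same pathway passed the test in small numbers. Of 41 assembly factors beside the SDHAF genes, 3 rose under shMBD2 and none fell, where 1.55% of all genes rose and 1.31% fell. COX16, a factor for complex IV, rose by 0.63 ± 0.15 with 9.16, 9.13, 8.89 and 8.78 against 8.34 and 8.37 (limma adjusted p = 0.0326). COA5, also a complex IV factor, rose by 0.83 ± 0.19 and TACO1, which promotes translation of the mitochondrial COX1 message, by 0.54 ± 0.13 (adjusted p = 0.0308 and 0.0361). In shCREM against shMS4A1, 2 of the 41 assembly factors were higher, where 2.87% of all genes were. COX11, which delivers copper to complex IV, read 7.99 and 7.65 under shCREM against 6.4, 6.23 and 6.74, and was higher by 1.36 ± 0.25 (adjusted p = 0.005). COA5 was higher by 0.85 ± 0.2 (adjusted p = 0.0214), where its control shNTC 3 at 8.09 stood near the shCREM arrays at 8.34 and 8.3.

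Of 15 electron carriers and feeders, 1 passed in that contrast, in which 6.12% of all genes passed, so 1 gene of a list this long is near the background. COQ2, which attaches the side chain of ubiquinone, read 7.84 and 8.12 under shCREM against 9.35, 9.06 and 9.06 under shMS4A1. It was lower under shCREM by 1.17 (standard error 0.21, limma adjusted p = 0.00442). Of 15 genes of pyruvate dehydrogenase and the tricarboxylic acid cycle, PDHB, a subunit of pyruvate dehydrogenase, was lower at -0.5 ± 0.14 (adjusted p = 0.0464). The median of this list was -0.21, with 11 of 15 below 0, against 0.00 over all genes. Of 18 regulators 1 passed too. MTERF3, a mitochondrial transcription factor, was higher under shCREM than under shMS4A1 by 0.67 ± 0.18 (adjusted p = 0.0365), with 9.79 and 9.74 against 9.4, 8.92 and 8.95. Its shNTC 3 reading of 9.62 stood near the shCREM arrays. None of 9 inhibitors, exchangers and uncouplers passed in any of the 4 comparisons, and no gene of these lists passed in shMS4A1 or shCREM against shNTC. NRF1, GABPA and YY1, the regulators whose motifs were counted above, did not pass in any of the 4 comparisons.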

How the data were processed

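The authors deposited raw and processed tables of 12 arrays. Per the file headers, the raw table gives an unnormalized linear intensity and a detection p-value for each probe and array. The deposited processed values are normalized intensities. The program that made them was not given in the sources used here. Because the raw table uses other probe identifiers than the annotation, the tables were joined by matching values across the 12 arrays. Every one of 48107 probes had 1 match (largest distance 0.0566, smallest to any other probe 0.076), and 48105 had complete values. Gene symbols were taken from the supplied platform annotation: 30113 probes had 1 symbol, 8 had several and were not named, and 17986 had none.

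Raw intensities were background-corrected and quantile-normalized with neqc (offset 16) in limma 3.58.1 under R 4.3.3. Probes with a detection p-value under 0.05 on at least 2 arrays were kept (27789, of which 18649 had 1 symbol), and each gene took its probe with the highest mean, giving 13702 genes. limma's linear model with the set as a block and an intensity trend was fitted to all arrays, two-sided, with Benjamini-Hochberg adjustment over all genes and a threshold of 0.05. Errors after ± are its standard errors. For shMBD2, hairpins A and C were averaged. A gene undetected throughout 1 group has only a bound, written "at least": the other group's mean against the higher of its own level and the lowest detected level on each array. The script was tested on simulated data. For arrays, their number limits the precision.

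Named are members that passed, the lowest and highest of each complex, chosen catalytic and other subunits, tissue isoforms, and for other lists the genes that passed. Members and lists were chosen with earlier results of these data known. The labels do not say that arrays come from separate cultures, so p-values measure only the spread between these samples. Promoter windows are from RefSeq (GRCh38.p14). ATP5F1D was matched to no window and is named only. UQCRH has the near-identical copy UQCRHL, and their probes were not told apart. Alternatives were another normalization, the authors' values, filters on dim probes, the mean of probes, no set block, a replicate block, no trend, only the arrays of a set, and leaving out each array.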

Additional observations from a re-analysis of the deposited data

How the results depend on the processing

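SDHA and ATP5F1D stayed lower under shCREM than under shMS4A1 and past the threshold in all 22 alternatives, at -1.37 to -1.19 (limma adjusted p = 5.14e-05 to 0.0073) and -0.89 to -0.54 (adjusted p = 0.00259 to 0.0488). NDUFV1 passed in 12 and missed in 10, at -0.67 to -0.57. It missed with no filter on dim probes (adjusted p = 0.0615), no intensity trend (0.11), no set block (0.0993), without any array of the contrast, and without either shMBD2 hairpin C array (0.0537 and 0.0539). The cause was not tested.

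The number of members called in shCREM against shMS4A1 was 3 in the report, where 6.12% of all genes were called. It was 5 with probes detected on all 12 arrays (4 lower, 1 higher), where 11.2% of all genes were called. With the authors' values it was 5, where 6.98% of all genes were called. It was 2 to 4 when 1 array outside shCREM was left out, where 2.96% to 7.56% of all genes were called. In shCREM against shNTC it was 4 without the set block, which sets the arrays against controls of both sets. That setting called 1.75% of all genes, against 0.0073% with the block. It was 0 when 1 array outside shCREM was left out, where 0.0073% to 0.0657% of all genes were called. Without shCREM hairpin A, which leaves 1 shCREM array, NDUFB2 differed by -1.29. In shMBD2 against shNTC it was 0 in the report, where 2.86% of all genes were called. It was 1 with probes detected on all 12 arrays, where 5.83% of all genes were called. It was 0 to 2 when 1 array other than shNTC 1 or shNTC 2 was left out, where 0.905% to 5.17% of all genes were called. The 2, SDHAF2 and UQCRC2, passed without either shCREM array, which enters through the shared estimate of spread. Without shNTC 2, which leaves 1 control, ATP5F1E, ATP5MF, NDUFV2 and SDHAF4 differed by -0.51, 0.83, 0.56 and -0.84. In shMS4A1 against shNTC it was 0 throughout. Causes of these changes were not tested.

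Median differences moved by little. For shCREM against shMS4A1 the median was 0.01 with the authors' values and -0.02 to 0.06 when 1 array was left out. For shCREM against shNTC it was 0.02 without the set block and -0.06 to -0.02 with 1 array left out. For shMBD2 it was -0.01 to 0.05 with 1 array left out. For shMS4A1 it was 0.00 without the set block, -0.04 with the authors' values, and -0.04 to -0.02 with 1 array left out. Among members with an unadjusted limma p under 0.05 in the report, 3 values reversed. They were ATP5F1E in shCREM against shNTC (-0.05 without the set block), SDHAF4 under shMBD2 (0.04 without the set block) and ATP5MF under shMBD2 (-0.01 without shNTC 1, and 0.83 without shNTC 2). Without the set block, 47 of all 83 members kept their sign for shMS4A1 against shNTC, 53 for shCREM and 70 for shMBD2. Of members beyond 0.3 in the report, 8 of 9, 11 of 12 and 12 of 13 kept it.

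The replicate block, for the shMBD2 hairpins and shNTC, left the counts of members called at 3 for shCREM against shMS4A1 and 0 for the others, with SDHA at -1.32 (limma adjusted p = 0.000962). Over 13702 genes, arrays with the same number did not deviate together (correlations -0.09, -0.01 and -0.03). Whether arrays with the same number were made together is not given in the labels and was not tested. Comparisons with shNTC in set 1 rest on 1 control array, and the interval of NDUFS1 against shNTC reached beyond 1 log2 unit below 0 in all 3 knockdowns.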

Other observations

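The SDHA pseudogenes, left out of the members, had higher readings under shMBD2. SDHAP2 rose by 0.79 ± 0.16 with all 4 knockdown arrays above both controls (limma adjusted p = 0.0164). SDHAP4 differed by 0.95 (adjusted p = 0.0669) and SDHAP1 by 0.69 (adjusted p = 0.127). SDHAP1 read 9.36 and 10.51 on the controls, a spread larger than its difference. The probe of SDHA itself differed by 0.14 in this comparison.

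CYCS, the gene for cytochrome c, which carries electrons between complexes III and IV, read 8.27 and 8.54 under shCREM against 7.8, 7.87 and 7.33 under shMS4A1. It was the highest of the 15 carriers and feeders in that contrast, at 0.74, and also under shMBD2 (0.62), and passed the test in neither. MYC, a factor known to act on mitochondrial genes and driven by a translocation in Burkitt lymphoma, differed by -0.38 ± 0.11 in shCREM against shMS4A1 (limma adjusted p = 0.0611).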
